A study of Mus musculus with 6 samples.

Results

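The transcripts described here are those of 3 beta subunits of the sodium pump (Atp1b1, Atp1b2 and Atp1b3), of Fxyd5, a small regulator of the pump, and of Kcna3 and Kcnn4, the potassium channels for which T cells are best known. They are 6 of the 47643 annotated gene IDs measured, and were taken by symbol. Atp1b1 was chosen by its measured FPKM, as a large rise in these same libraries, so its change is a description and carries no test. RNA sequencing was done on induced regulatory T cells (iTreg) of C57BL/6 mice carrying Foxp3-DTR/EGFP, an allele that puts a diphtheria toxin receptor and a green fluorescent reporter under Foxp3. Splenic CD4+ T cells had 2 days under TGF-β with antibodies to CD3 and CD28. They were then given vehicle (DMSO) or 100 nM prostaglandin E2 (PGE2) for 6 h, and Foxp3+ cells were sorted by green fluorescence. Each group has 3 libraries, and the genotype, culture and sort were shared by both groups. The labels do not say whether replicates came from separate mice or cultures, so every p-value below rests on the spread among these libraries alone, which may be technical.

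The sodium pump moves sodium out of the cell and potassium in at the cost of ATP. Its catalytic alpha subunit needs a beta subunit, a glycoprotein, to fold and reach the cell surface, and FXYD proteins tune its kinetics. In T cells potassium leaves through the voltage-gated channel encoded by Kcna3 and the calcium-activated channel encoded by Kcnn4, and the resulting negative membrane potential drives calcium entry through store-operated channels.

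Levels are given in FPKM (fragments per kilobase of transcript, at equal library size), which is per length, so that genes can be set side by side. Depth was taken as the median of coverage over FPKM in genes with a single transcript, since in genes with several transcripts that ratio differs from gene to gene. It was 3.996 to 5.446 gigabases of fragments, and the 2 libraries numbered 3 were the shallowest of their groups. All 5 markers of regulatory T cells and all 6 of T cells were above 1 FPKM, and Foxp3 had means of 92.1 ± 14.4 and 115 ± 22.5 FPKM for vehicle and PGE2 (SD, n = 3; adjusted p = 0.514 with limma). Of the 5 regulatory T cell markers 1, other than Foxp3, did pass at 0.05 with limma, as did 0.809% of all tested genes. Of the 6 T cell markers 0 did. Crem, a transcript known to be induced by cAMP, rose from 55.8 ± 8.30 to 189 ± 21.1 FPKM (log2 change 1.75, adjusted p = 0.0027 with limma). Its mean coverage was 10.9 and 35.1, and on coverage scaled to depth the log2 change was 1.27 (adjusted p = 0.0028 with limma). In both measures 1 was added before the log, which understates the change more on coverage, where the values of Crem are lower. Of markers of other cells, 0 of 5 myeloid and 0 of 6 erythroid and platelet genes reached 1 FPKM, and Ncr1, Klrb1c, Pf4, Ppbp and Krt8 were listed at 0 in every library. The summed level of 4 B cell markers was 3.83 to 5.70 FPKM with vehicle and 3.55 to 4.33 with PGE2, that of 4 stromal and endothelial markers was 9.18 to 10.8 and 10.5 to 12.1, and only Cd79b and Pecam1 in these lists reached 1 FPKM. The groups did not overlap in the sum of the 5 Treg markers (979 to 1052 FPKM against 1091 to 1179 with PGE2), of 4 NK and CD8 markers (5.27 to 5.59 against 5.92 to 6.64, with Cd8b1 alone above 1 FPKM) or of 3 epithelial markers (3.51 to 5.54 against 1.48 to 2.42, with Epcam alone above 1 FPKM). Their part in the results below was not tested, and fewer cells of a type cannot be told apart from less RNA per cell in such bulk samples. Of all tested genes taken singly, 19.7% did not overlap between the groups.

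The promoters of the genes on which the results turn are shown because Atp1b1 changed while Atp1b3, which encodes the other expressed beta subunit, did not pass a test of change, and because both channel genes had groups that did not overlap. Each is the 250 bases before the RefSeq start (GRCm38.p6), read 5′ to 3′ on the strand of the gene. They run over chr1:164458356-164458605 (minus strand), chr9:96364432-96364681 (minus strand, the one of 2 listed starts that lies at the gene's 5′ end), chr3:107035912-107036161 (plus strand) and chr7:24370013-24370262 (plus strand). Capitals mark matches on either strand to any of 5 motifs. These are the cAMP response element, TGACGTCA, the half-site of that element, written TGACG, the TATATA element, the reverse or forward letters of a CCAAT box, and a GC box spelled GGGCGG.
Atp1b1: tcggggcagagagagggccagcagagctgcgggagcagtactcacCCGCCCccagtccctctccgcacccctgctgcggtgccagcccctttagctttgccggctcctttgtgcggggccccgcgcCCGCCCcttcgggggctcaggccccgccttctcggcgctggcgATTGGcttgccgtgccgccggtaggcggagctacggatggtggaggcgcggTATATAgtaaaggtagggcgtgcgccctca
Atp1b3: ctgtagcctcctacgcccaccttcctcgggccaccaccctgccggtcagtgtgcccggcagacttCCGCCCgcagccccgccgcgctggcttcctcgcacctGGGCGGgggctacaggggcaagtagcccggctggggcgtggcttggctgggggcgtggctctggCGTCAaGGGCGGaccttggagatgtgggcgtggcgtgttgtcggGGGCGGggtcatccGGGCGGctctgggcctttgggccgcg
Kcna3: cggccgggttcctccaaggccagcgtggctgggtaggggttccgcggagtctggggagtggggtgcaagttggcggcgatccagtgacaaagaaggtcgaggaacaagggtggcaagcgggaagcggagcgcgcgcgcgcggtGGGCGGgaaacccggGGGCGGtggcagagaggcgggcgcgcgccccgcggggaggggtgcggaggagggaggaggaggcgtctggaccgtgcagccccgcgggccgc
Kcnn4: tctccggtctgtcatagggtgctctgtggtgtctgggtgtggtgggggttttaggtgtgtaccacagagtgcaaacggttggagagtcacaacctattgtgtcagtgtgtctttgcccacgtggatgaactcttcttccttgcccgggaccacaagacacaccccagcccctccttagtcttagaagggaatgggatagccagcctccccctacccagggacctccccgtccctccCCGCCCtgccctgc

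The Atp1b1 window held a TATATA run 30 bases before the start, a reversed CCAAT 81 bases before it and reversed GC boxes 124 and 205 bases before it. The Atp1b3 window held neither TATATA nor CCAAT, but had 5 GC boxes and a reversed half-site 84 bases before the start. GC boxes were the only matches for Kcna3 (107 and 92 bases before the start) and for Kcnn4 (14 bases before it). Of 32851 mouse promoter windows of this length, TATATA was in 5.25%, CCAAT in 33.8%, GGGCGG in 32.7%, the half-site in 17.8% and TGACGTCA, which contains the half-site, in 1.55%. TGACGTCA was in none of these 4 windows. The windows were 70.4% (Atp1b1), 73.6% (Atp1b3), 74.4% (Kcna3) and 58.8% (Kcnn4) G or C, where the median of all promoter windows was 52.4%. The motifs were chosen with the expression values known, and a match describes letters, not a bound site. The table held 5 of the 6 genes. It lists no entry for Atp1b2, and that of Fxyd5 contained none of these letters. The Fxyd5 window, chr7:31042332-31042581 (minus strand), lies partly inside the annotated gene, whose 5′ end is at 31042481. It therefore does not cover the 250 bases before that end.

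Atp1b1 encodes the beta1 subunit, the most widespread beta subunit of the pump. Its level with vehicle was 7.68, 8.56 and 10.2 FPKM in replicates 1, 2 and 3, and with PGE2 it was 20.9, 23.3 and 26.5 FPKM. Every library with PGE2 was above every library with vehicle, and the libraries numbered 3 were the highest of each group. The means were 8.83 ± 1.30 and 23.6 ± 2.81 FPKM (SD, n = 3), a ratio of 2.67. On the log2(FPKM + 1) scale, on which the changes of low genes are understated, the change was 1.32 (SE 0.13). This was rank 15 among the changes of 12113 tested genes ordered from the largest rise. Between libraries of the same number it was 1.34, 1.34 and 1.29, closer together than the 3 libraries within either group. Read coverage of the gene, the mean depth over its bases, gave the same picture, with 31.2, 35.9 and 32.2 with vehicle and 92.4, 99.3 and 99.2 with PGE2.

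Atp1b1 (ENSMUSG00000026576.12, 4 annotated transcripts) lies on chromosome 1 from 164437109 to 164458355 on the minus strand in the mm10 coordinates of the files. Its last bases overlap the end of Nme7, on the plus strand from 164304121 to 164437725. Nme7 encodes a protein of the nucleoside diphosphate kinase family and stood at 7.56, 6.43 and 8.09 FPKM with vehicle and 9.19, 8.65 and 9.81 with PGE2 (log2 change 0.29, SE 0.11, adjusted p = 0.306 with limma), which missed the threshold. The library kit keeps the strand, per the labels, but whether the strand was used when values were assigned is not given in the sources used here. Where it was not, reads of the shared bases cannot be told apart. The assembled locus that the files list beside the annotated gene had the same start and end in all 6 libraries, and the annotated value was 93.9% to 100% of it.

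**Figure D1:**
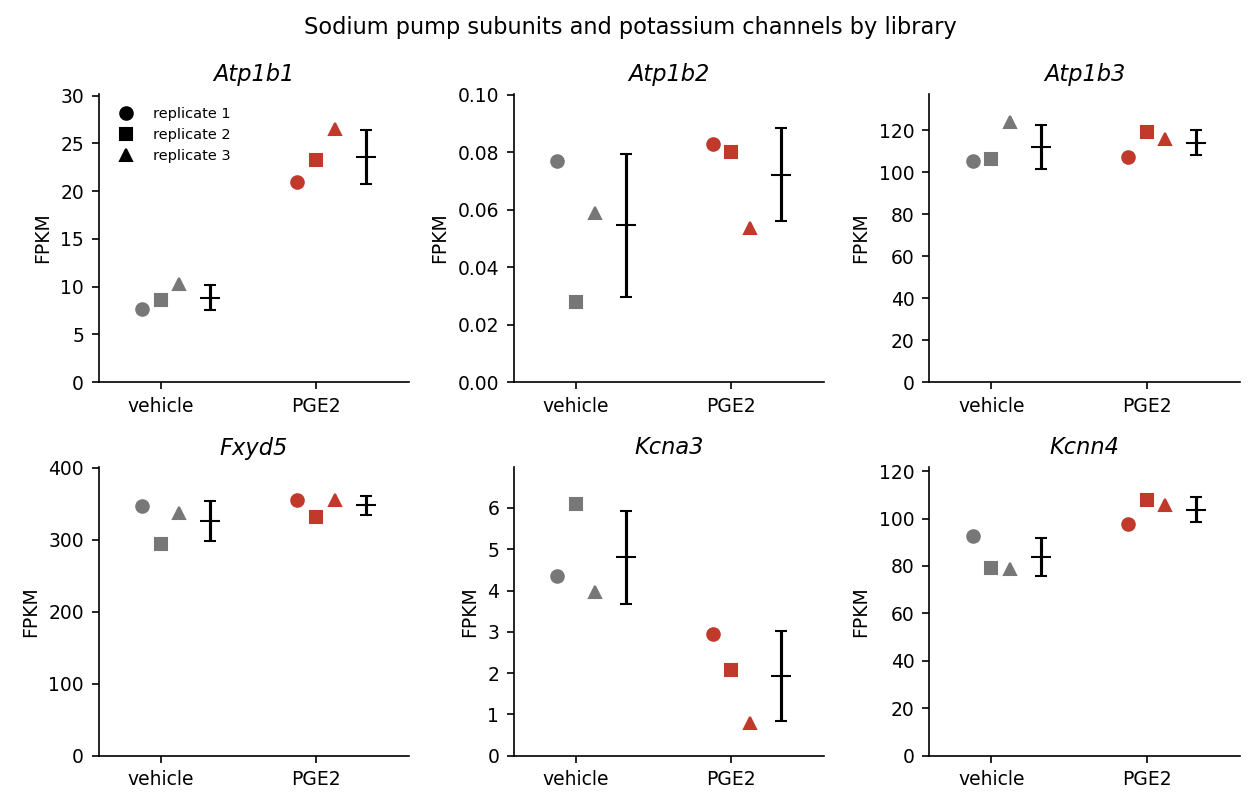
FPKM of each gene (vertical axes, all from 0) in the 3 vehicle libraries (grey) and the 3 PGE2 libraries (red), with the symbol giving the replicate number and the bar the mean ± SD of each group. The groups are apart for Atp1b1 (higher with PGE2), Kcna3 (lower) and Kcnn4 (higher), and overlap for Atp1b2, Atp1b3 and Fxyd5.

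Atp1b3 encodes the beta3 subunit and was the main beta transcript in these cells. It was at 105, 106 and 124 FPKM with vehicle and 107, 119 and 116 with PGE2. The highest of the 6 libraries was vehicle replicate 3, and the groups overlapped. The means were 112 ± 10.4 and 114 ± 6.04 FPKM (SD, n = 3), and the log2 change of 0.03 did not pass the test (SE 0.10, adjusted p = 0.93 with limma). The 95% interval of the change was -0.20 to 0.26. Atp1b3 (ENSMUSG00000032412.8) lies on chromosome 9 from 96332655 to 96364442, minus strand.

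Atp1b2, the beta2 subunit, best known from glia and neurons, was close to the limit of what these libraries show. It was listed at 0.077, 0.0279 and 0.0588 FPKM with vehicle and at 0.0828, 0.0802 and 0.0536 with PGE2, with a coverage of 0.141 to 0.451 reads per base. The groups overlapped, and the gene (ENSMUSG00000041329.13, chromosome 11 from 69599736 to 69605942) was below the mean of 1 FPKM required for a test. A difference was not detectable at this depth.

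Fxyd5, the FXYD protein also called dysadherin, which binds the pump and affects cell adhesion, had the highest FPKM of the 6 genes, though its mean coverage (414 with vehicle and 471 with PGE2) was below that of Atp1b3 (437 and 480). It was at 346, 294 and 337 FPKM with vehicle and 355, 332 and 356 with PGE2. Vehicle replicate 2 was the lowest library, and the groups overlapped, although each PGE2 library was above the vehicle library of its number. The means were 326 ± 27.7 and 347 ± 13.7 FPKM (SD, n = 3; log2 change 0.10, SE 0.10, 95% interval -0.14 to 0.33, adjusted p = 0.769 with limma). Fxyd5 (ENSMUSG00000009687.14, 14 annotated transcripts) lies on chromosome 7 from 31032722 to 31042481, minus strand.

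The balance among the beta transcripts differed between the groups. The share of beta FPKM that came from Atp1b1 was 6.78%, 7.46% and 7.63% with vehicle and 16.3%, 16.3% and 18.6% with PGE2. It is given without a test, since Atp1b1 was chosen for its rise. Atp1b3 remained the larger part of the beta transcripts in every library. The summed beta FPKM was 113, 115 and 134 with vehicle and 128, 142 and 142 with PGE2, with means of 121 ± 11.7 and 138 ± 8.07 (SD, n = 3). The groups overlapped in this sum, which also contains Atp1b1 and was therefore not tested.

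**Figure D2:**
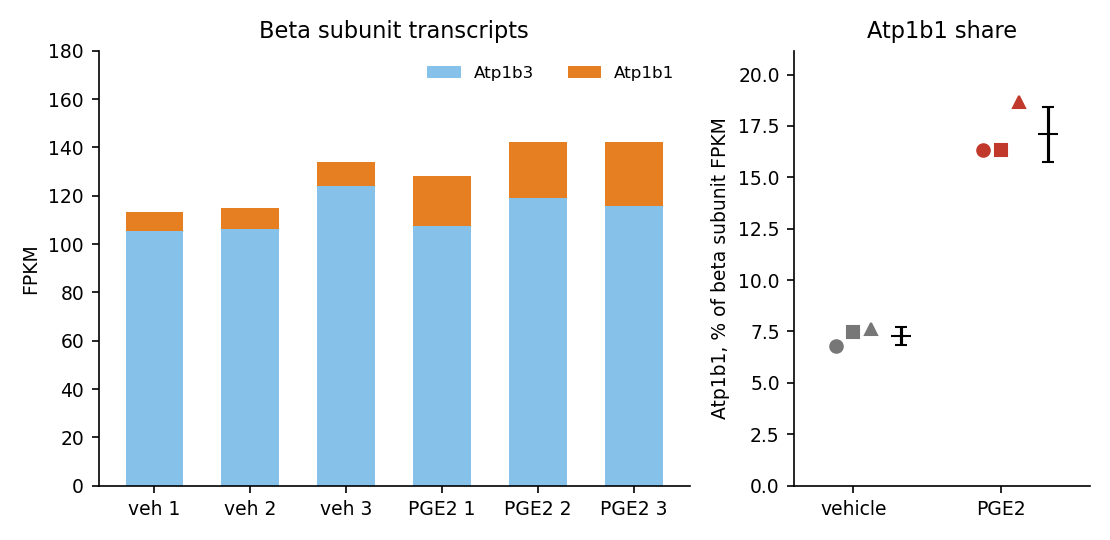
Left, FPKM of Atp1b3 and Atp1b1 stacked (light blue and orange) in each library. Right, the share of beta subunit FPKM from Atp1b1 in percent for the 3 vehicle (grey) and 3 PGE2 (red) libraries, with symbols for the replicate number and mean ± SD: the share was 6.78% to 7.63% against 16.3% to 18.6%.

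Kcna3, the voltage-gated channel, had a low level that was lower still with PGE2. It was at 4.35, 6.09 and 3.97 FPKM with vehicle and at 2.95, 2.08 and 0.780 with PGE2. Every PGE2 library was below every vehicle library, and PGE2 replicate 3 was the lowest. The means were 4.81 ± 1.13 and 1.93 ± 1.09 FPKM (SD, n = 3), 2.48-fold lower with PGE2. The log2 change of -1.04 (SE 0.29, 95% interval -1.72 to -0.36) did not pass the test over all genes (adjusted p = 0.178 with limma). With the replicate number as a block, the adjusted p with limma was 0.0495 and the fall narrowly passed. The differences within numbers were -0.44, -1.20 and -1.48, all in the same direction and of unequal size.

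The change of Kcna3 was rank 14 of 12113 when genes were ordered from the largest fall, and its SE was also larger than that of Atp1b1. Its coverage was 22.3, 30.7 and 15.9 with vehicle and 16.0, 10.8 and 3.54 with PGE2, so that vehicle replicate 3 and PGE2 replicate 1 were nearly level before the depth of the libraries is taken into account. Kcna3 (ENSMUSG00000047959.4, 1 annotated transcript) lies on chromosome 3 from 107036169 to 107038070, plus strand. In vehicle replicate 1 the assembled locus ran on to 107054347 at 6.17 FPKM, and the annotated value was 70.6% of it. With locus values in place of gene values the log2 change was -1.18 (adjusted p = 0.137 with limma).

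Kcnn4, the calcium-activated channel, was far more abundant. It was at 92.9, 79.3 and 78.8 FPKM with vehicle and 97.8, 108 and 106 with PGE2. All PGE2 libraries were above all vehicle libraries, but the gap between vehicle replicate 1 and PGE2 replicate 1 was small. The means were 83.7 ± 7.97 and 104 ± 5.27 FPKM (SD, n = 3), a ratio of 1.24, and the log2 change of 0.31 missed the threshold (SE 0.10, 95% interval 0.08 to 0.54, adjusted p = 0.225 with limma). Within numbers the differences were 0.07, 0.44 and 0.42. Kcnn4 (ENSMUSG00000054342.8, 5 annotated transcripts) lies on chromosome 7 from 24370263 to 24386690, plus strand.

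Of the 4 tested genes other than Atp1b1, 0 passed at an adjusted p of 0.05 with limma, while 0.809% of all 12113 genes did (0.57% rose and 0.239% fell), and Kcna3 and Kcnn4 had an unadjusted p under 0.05, as did 13% of all genes. In the blocked fit 1 of these 4 passed, Kcna3, where 3.26% of all genes did (1.77% rose and 1.49% fell). Groups did not overlap for Kcna3 and Kcnn4, as for 19.7% of all tested genes (7.81% higher and 11.9% lower with PGE2). The median log2 change of all tested genes was -0.03, so the values above are little shifted against the bulk of genes.

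The balance of the 2 channels was further towards Kcnn4 with PGE2 in every library. The log2 ratio of Kcna3 to Kcnn4 FPKM was -4.41, -3.70 and -4.31 with vehicle and -5.05, -5.70 and -7.08 with PGE2. The groups did not overlap, and PGE2 replicate 3, which had the least Kcna3, stood farthest out. The means were -4.14 ± 0.385 and -5.94 ± 1.04 (SD, n = 3), or 17.7 and 61.6 times as much Kcnn4 as Kcna3 in FPKM. An exact two-sided permutation test gave p = 0.1 (adjusted over 2 tests of ratios 0.2; the other is not reported here), and 0.1 is the smallest p that 3 libraries against 3 allow. Without PGE2 replicate 3 the difference of means was -1.23 in place of -1.80. On coverage that difference was -1.86, but the gap between the 2 channels was smaller than in FPKM. Mean coverage was 151 for Kcnn4 and 23.0 for Kcna3 with vehicle, and 207 and 10.1 with PGE2.

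**Figure D3:**
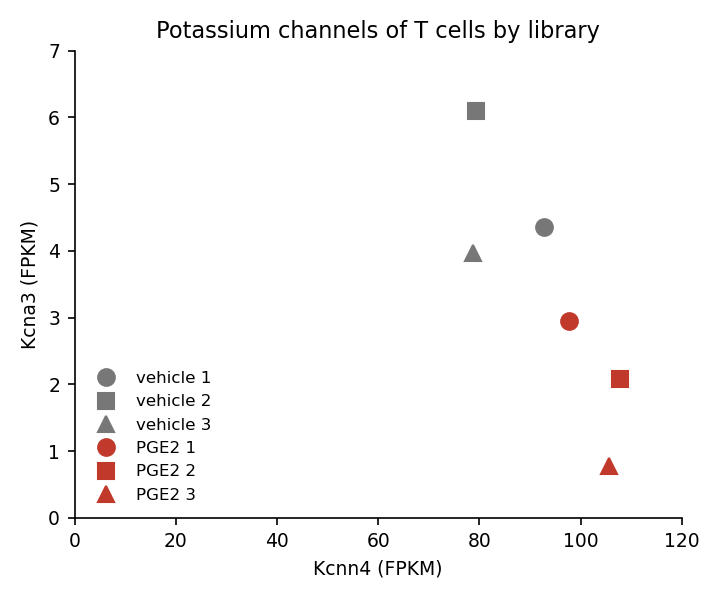
Kcnn4 FPKM (horizontal axis) against Kcna3 FPKM (vertical axis) in the 6 libraries, vehicle in grey and PGE2 in red, with the symbol giving the replicate number. The PGE2 libraries lie lower and further right than the vehicle libraries, from 97.8 to 108 FPKM of Kcnn4 and from 0.780 to 2.95 of Kcna3.

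In order of FPKM with vehicle, Fxyd5 (326 FPKM) was followed by Atp1b3 (112), Kcnn4 (83.7), Atp1b1 (8.83), Kcna3 (4.81) and Atp1b2 (0.0546), and no neighbours in this order overlapped. With PGE2 the order was the same, at 347, 114, 104, 23.6, 1.93 and 0.0722 FPKM. Here Atp1b3 and Kcnn4 did overlap. On mean coverage Atp1b3 stood above Fxyd5 in both groups. The distance between Atp1b1 and Kcna3, small with vehicle, was wide with PGE2.

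**Figure D4:**
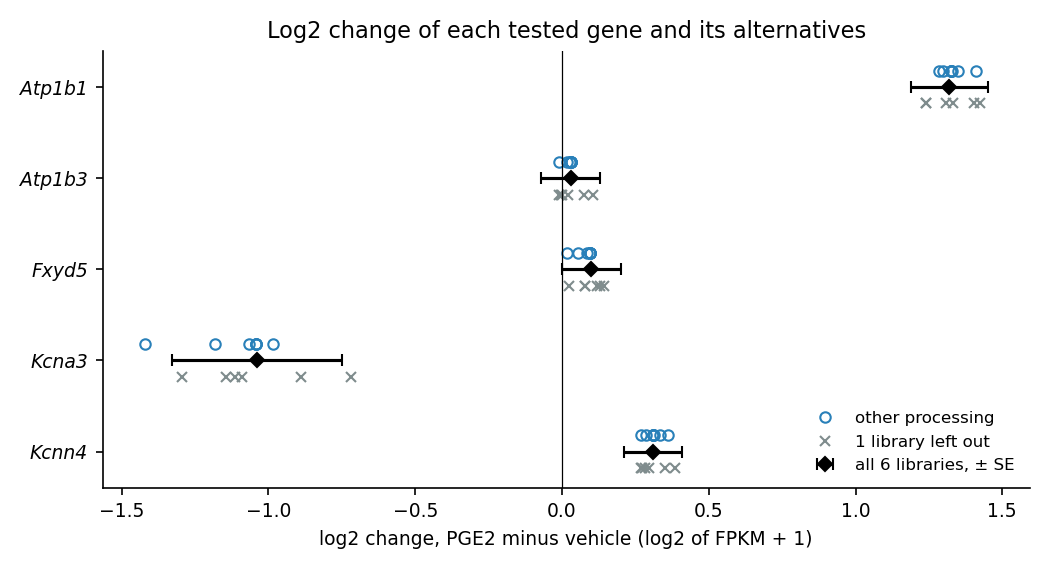
Log2 change of the 5 tested genes (PGE2 minus vehicle, on the scale of log2 of FPKM + 1), as black diamonds with SE bars, with the values under other processing (blue circles above) and with 1 library left out (grey crosses below). The Atp1b1 values lie between 1.24 and 1.43, those of Kcna3 are all below 0 and reach -0.72 without PGE2 replicate 3, those of Kcnn4 are all above 0, and those of Atp1b3 fall on both sides of 0.

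The remaining beta gene Atp1b4 was listed at 0 in all 6 libraries, and the other FXYD genes Fxyd1, Fxyd2, Fxyd3, Fxyd4, Fxyd6 and Fxyd7 were at most 0.406 FPKM in any library, below the filter. Of 35 other potassium channel genes, 6 were tested and 0 passed with limma. At an unadjusted p under 0.05 there was 1, beside 13% of all tested genes. The median log2 change was -0.15, beside -0.03 for all tested genes. Kcnk5, a two-pore channel that conducts at rest, was at 11.5, 11.6 and 12.3 FPKM with vehicle and 8.66, 8.31 and 8.25 with PGE2. The groups were apart and each tight, with means of 11.8 ± 0.449 and 8.41 ± 0.222 FPKM (SD, n = 3). The log2 change was -0.45 (SE 0.08, adjusted p = 0.0649 with limma), just short of the threshold. Adjusted p was 0.0438 in the blocked fit, 0.0468 on coverage, where 1.31% of all genes passed (0.925% up and 0.388% down), and 0.04995 with a minimum mean of 5 FPKM (all with limma). With 1 library left out it did not pass (adjusted p = 0.105 to 0.256).

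Kcnk6, another two-pore channel, named here after its values were seen, was also lower with PGE2 without overlap, at 3.21, 2.68 and 3.87 FPKM with vehicle and 2.57, 2.46 and 2.62 with PGE2 (log2 change -0.25, SE 0.13, adjusted p = 0.48 with limma). The other 4 tested channel genes overlapped between the groups, where 19.7% of all tested genes did not. Of these, Kcnk7, also a Kcnk gene and named after its values were seen, went the other way. It was at 2.03 ± 0.474 and 2.50 ± 0.351 FPKM (SD, n = 3; log2 change 0.22, SE 0.15, adjusted p = 0.622 with limma). Kcnab2, a beta subunit that binds channels of the Kcna family, was at 85.6 ± 5.80 and 82.2 ± 7.08 FPKM (SD, n = 3; adjusted p = 0.879 with limma). Its mean coverage was 38.3 with vehicle, where that of Kcna3 was 23.0, a smaller gap than in FPKM. Kcnh2, a voltage-gated channel of the ether-à-go-go family, was at 5.49 ± 1.09 and 5.69 ± 1.31 FPKM, and Kcnab3, a second beta subunit, at 1.73 ± 0.425 and 1.22 ± 0.294 FPKM (adjusted p = 0.52 with limma).

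Among 10 regulators of the 2 channels, 9 were tested and 0 passed with limma (0 with an unadjusted p under 0.05), with a median log2 change of -0.04. Calmodulin is the calcium sensor of the Kcnn4 channel, and Calm2, which encodes it, was at 227 ± 37.6 FPKM with vehicle and 239 ± 33.5 in the PGE2 libraries (SD, n = 3). Nme2, a histidine kinase that activates the channel, was at 211 ± 11.3 and 188 ± 33.2 FPKM (log2 change -0.17, adjusted p = 0.653 with limma). Dlg1, a scaffold that binds the Kcna3 channel, was at 11.3 ± 2.46 and 10.4 ± 1.71 FPKM. All 3 overlapped between the groups.

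Of 17 genes of calcium entry and calcium pumps, 15 were tested and 0 passed with limma (0 with an unadjusted p under 0.05), with changes from -0.35 to 0.24 and a median of -0.04. Orai1, the pore of the store-operated channel, had means of 19.1 ± 1.87 and 22.5 ± 1.65 FPKM for vehicle and PGE2 (SD, n = 3; log2 change 0.22, adjusted p = 0.408 with limma). Its groups did not overlap, as for 2 of the 15 tested genes of this list and 19.7% of all tested genes. The calcium pumps of the endoplasmic reticulum Atp2a3 and Atp2a2 were at 75.7 ± 5.004 and 59.8 ± 1.51 FPKM with vehicle and 70.9 ± 7.74 and 57.3 ± 6.12 with PGE2. The largest changes in FPKM were those of Itpr2 and P2rx4. Itpr2, a calcium release channel, was at 1.75 ± 0.409 and 1.16 ± 0.234 FPKM. P2rx4, an ATP-gated channel, was at 5.62 ± 1.33 and 6.73 ± 0.767 FPKM. Both overlapped between the groups. On coverage scaled to depth their log2 changes were smaller, at -0.12 and 0.13, and that of Orai1 was 0.26. Adding 1 to both measures lowers a change more for P2rx4, whose scaled coverage was below its FPKM.

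Of 22 genes of other sodium, chloride and volume transport, 19 were tested, 1 rose and 0 fell with limma, beside 0.57% of all genes that rose, with a median log2 change of -0.01. At an unadjusted p under 0.05 there were 2 higher and 1 lower, beside 13% of all tested genes in either direction. Groups did not overlap for 4 of the 19, beside 19.7% of all tested genes. The gene that rose was Sgk1, a kinase known to promote sodium transport, sodium pump activity and Kcna3 channel activity. It was at 78.8, 74.1 and 79.9 FPKM with vehicle and 122, 111 and 106 with PGE2. The groups were well apart, at means of 77.6 ± 3.04 and 113 ± 7.90 FPKM (SD, n = 3; log2 change 0.53, SE 0.09, adjusted p = 0.0488 with limma). The call was close to the threshold. It was lost when any one of the 6 libraries was left out (adjusted p = 0.077 to 0.221), and also without a filter on level (0.0982), with quantile normalization (0.0838), with rescaled totals (0.117) and without the variance trend (0.0651). The other genes of this list with an unadjusted p under 0.05, named after their values were seen, were Lrrc8d, a subunit of the volume-regulated anion channel, at 8.65 ± 1.31 and 12.5 ± 0.728 FPKM (adjusted p = 0.122 with limma), and Slc12a2, a cotransporter of sodium, potassium and chloride, at 3.72 ± 0.185 and 2.51 ± 0.375 FPKM (adjusted p = 0.161 with limma). Neither passed, and neither overlapped between the groups. The log2 change of Lrrc8d was 0.50 in FPKM but 0.24 on coverage scaled to depth, and that of Slc12a2 was -0.43 on both. In both measures 1 was added before the log. Mean coverage of Lrrc8d was only 4.33 and 6.47 before scaling, so its change on coverage is the more understated. These 2 values therefore do not by themselves show that coverage and FPKM differ for Lrrc8d.

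**Figure D5:**
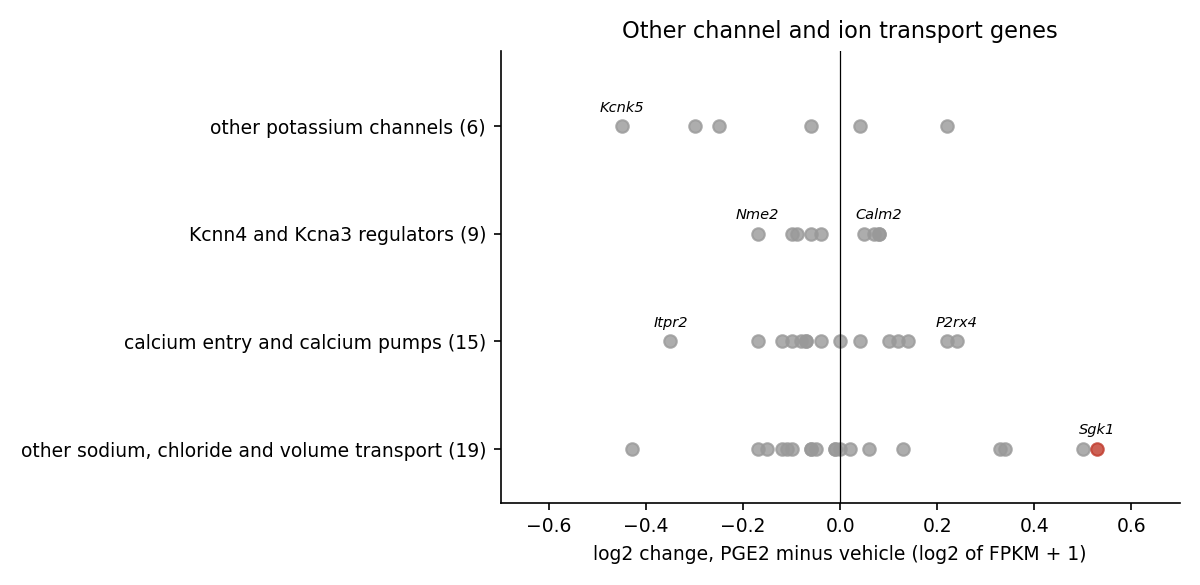
Log2 change (PGE2 minus vehicle, on the scale of log2 of FPKM + 1) of each tested gene in 4 lists of channel and ion transport genes, with the number tested in brackets and Kcnab2 in 2 lists. Sgk1 (red, 0.53) is the gene that passed the test, and Kcnk5 at -0.45 has the lowest value.

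The genes whose levels followed Atp1b1 most closely over the 6 libraries, among protein-coding genes averaging 5 FPKM or more, were Nab2, a corepressor of Egr factors (Pearson r = 0.9943 of log2 values), Rhoq, a small GTPase (0.9942), Gpr65, a proton-sensing receptor (0.9938), Oaz2, an antizyme of polyamine synthesis (0.9919), and Ifngr2, a chain of the interferon-γ receptor (0.9912). For Kcnn4 they were Vimp, a selenoprotein of the endoplasmic reticulum (0.9896), Rabac1, a Rab acceptor (0.9882), Qars, a tRNA synthetase (0.988), Ech1, an enzyme of fatty acid oxidation (0.9859), and Prdx2, a peroxiredoxin (0.9851). With 207 genes at 0.9 or more for Atp1b1 and 166 for Kcnn4, such values are common here. The 6 points share 2 groups and their library depths, so these figures describe likeness only.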

How the data were processed

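Groups and replicate numbers came from the sample titles. Per the labels' protocols, libraries were made with a stranded kit that selects mRNA. Per the submitters' processing notes, reads were handled with Trim Galore and HISAT2 and the build was mm10. Tool versions, annotation and quantifier: not given in the sources used here. Per the file headers, each of the 6 deposited tables gives coverage, FPKM and TPM for each gene. FPKM, as deposited, is scaled to transcript length and library size, and coverage, as deposited, is a signal, the mean read depth of a gene. What the authors deposited as TPM was taken as a score and left aside, because it sums to 1913858 to 1941780 in a table that lists loci both as assembled and as annotated. The files held FPKM, so no count model was run, and intervals for counting error were not computed. Genes above 1 FPKM had a median coverage of 27.6 to 36.1 by library.

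Entries under an annotated gene ID were used, and IDs listed more than once (21 to 27 per library) were summed. Of 47643 IDs, 39106 were in GENCODE release M21 with their version. The 12113 genes averaging 1 FPKM or more were compared on log2(FPKM + 1) with limma 3.58.1 in R 4.3.3 (variance trend, 6 libraries, no covariate, two-sided, Benjamini-Hochberg adjustment over all tested genes, threshold 0.05). Ratios were compared with exact permutation tests in scipy 1.17.1. Whether replicate numbers pair the samples was checked on deviations from the group means. These correlated across genes at 0.23, 0.31 and 0.53 for the numbers 1, 2 and 3. Unlike numbers also exceeded 0.1 for vehicle 2 with PGE2 1 (0.27) and vehicle 1 with PGE2 2 (0.15). The others were at -0.29 to -0.43. The check therefore does not settle whether numbers pair the samples. As all values of like numbers exceed 0.1, the blocked value is given where it changes a call. Promoter sequences are from RefSeq (GRCm38.p6), with motifs searched in the 250 bases before each start.

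The genes, lists and motifs were chosen with earlier results of these data known. Named from each list are called members or, where there were none, the 3 highest in level and the 2 with the largest change; named beside Atp1b1 and Kcnn4 are the 5 genes with the highest correlation. Nme7 was added for its overlap with Atp1b1, after its values were seen. Some genes of the lists, and ratios that use them, are not reported here. Alternatives were a pseudocount of 0.1, no filter, a minimum mean of 5 FPKM, quantile normalization, rescaled totals, coverage scaled to depth in place of FPKM, assembled-locus values, no variance trend, the replicate block, and each library left out. Figures were drawn with matplotlib 3.10.9.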

Additional observations from a re-analysis of the deposited data

How the results depend on the processing

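The number of genes called, 98, became 45 without a filter, 159 on coverage, 395 with the replicate block and 22 to 69 with 1 library left out; it was 22 without PGE2 replicate 2, 33 and 40 without vehicle replicates 2 and 1, and 35 and 53 without PGE2 replicates 1 and 3. Over all settings run, the log2 changes of Atp1b1, Fxyd5, Kcna3 and Kcnn4 kept their direction. For Atp1b1, Kcna3 and Kcnn4, whose groups do not overlap, leaving out 1 library could not reverse it. Atp1b1 was also chosen for its rise, so its kept direction is a description only. The Kcna3 change of -1.04 passed the threshold with the replicate block and under no other setting (adjusted p = 0.0495 to 0.487 with limma). Kcnn4 passed under none (0.114 to 0.591). Beside Kcna3, the replicate block changed the call of Kcnk5 and of no other gene named from the lists; the genes named for their likeness to Atp1b1 or Kcnn4 were not compared. The Atp1b3 change of 0.03 was -0.011 with rescaled totals and -0.00887 to 0.106 with 1 library left out. That of Atp1b2, under the filter, was 0.16 with a pseudocount of 0.1; it is a value near 0 FPKM. Among the lists, 1 called gene became 0 without a filter, with quantile normalization, with rescaled totals, without the variance trend and with any 1 library left out (0 to 0), and 2 with a minimum of 5 FPKM, on coverage and with the replicate block. The cause of these shifts was not tested. Atp1b2 is below the level filter and gave values only for the pseudocount, no filter, coverage and single-library omissions; Kcna3 gave none with a minimum of 5 FPKM. At this depth no difference in Atp1b2 was detectable.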
